A study of Mus musculus with 30 samples.

Results

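α-Synuclein fibrils and lipopolysaccharide were compared with each other in microglia that lack Lrrk2, using the 9 of 30 libraries that carry the genotype Lrrk2-/- and 1 of these treatments in the labels. The tissue was primary microglia of C57BL/6 mice at postnatal day 21. Of the 9 libraries, 5 came from Lrrk2-/- microglia given α-synuclein fibrils (KO fibril) and 4 from Lrrk2-/- microglia given lipopolysaccharide (KO LPS). A further 6 libraries of Lrrk2-/- microglia labelled as control (KO control) are used as the baseline, and 4 wild-type fibril and 6 wild-type LPS libraries for the difference between genotypes. All groups share the strain, the age and the culture as primary microglia, and both main groups share the Lrrk2 deletion. The sources used here do not give doses, exposure times, sex or the origin of replicates (separate cultures, animals or neither), so the p-values measure the spread between these libraries, which may be technical. Because neither dose nor time is known to be matched, every difference below is one between these 2 exposures as they were given.

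Lipopolysaccharide (LPS), a component of the outer membrane of Gram-negative bacteria, is sensed by Toll-like receptor 4 with its coreceptors MD-2 and CD14. The receptor signals through the adaptor MyD88 to NF-kB and mitogen-activated protein kinases, and through the adaptor TRIF to interferon beta. α-Synuclein is a neuronal protein found in the Lewy bodies of Parkinson's disease, and its fibrils are taken up by microglia and have been reported to engage Toll-like receptors, among them Toll-like receptor 2. The early response to such signals includes immediate early transcription factors and feedback inhibitors such as IκBα and A20, whose mRNAs are made quickly and decay quickly. LRRK2 is a large kinase and GTPase that is linked to Parkinson's disease and phosphorylates Rab proteins.

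Levels are read counts relative to the library total (CPM), adjusted with TMM factors, and are listed in the order of the replicate numbers. Fold changes are log2 values ± standard error (SE) from edgeR's quasi-likelihood test, KO fibril over KO LPS unless another pair is named. A gene is called when its p, adjusted by the Benjamini-Hochberg method over all 14346 genes tested, is below 0.05. Lrrk2 itself had 1.61, 1.26, 1.05, 0.731 and 1.88 CPM in KO fibril libraries, against 3.56, 2.22, 4.68 and 3.52 CPM in KO LPS libraries and 1.96 to 4.35 CPM in KO controls. Wild-type fibril libraries held 6.87 to 9.49 CPM and wild-type LPS libraries 11.4 to 15.9 CPM, so every knockout library lay below every wild-type library with the same treatment. The remaining Lrrk2 signal was lower with fibrils, with no overlap between the groups, by -1.42 ± 0.24 (edgeR adjusted p = 7.47e-05), and the sources used here do not give the deleted exon.

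Some libraries stand apart. KO LPS replicates 1 and 2 lay at -70.5 and -68.4 on the first principal component of the 9 libraries, against -10.8 and -11.6 for KO LPS replicates 3 and 4. KO LPS replicates 1 and 2 were also closer to each other than any other pair within the 2 groups, although they differed by more than sampling noise (median chi-square per gene 1.43, against 0.455 for noise alone and 3.74 for KO LPS replicates 3 and 4). KO fibril replicate 5 had the lowest mean log2 CPM of cell cycle genes, 3.10, against 4.03 to 4.71 in the other KO fibril libraries, and the highest mean of interferon genes, 7.51, against 3.61 to 6.17. Total gene counts were 19314337 to 22800537 in KO fibril and 16518120 to 25174442 in KO LPS libraries. Pairs of wild-type fibril libraries were also close, with a median chi-square per gene of 1.08 to 1.73, against 4.0 to 18.12 for KO fibril pairs. The closest wild-type LPS pair had 1.44. These libraries share in the estimate of spread behind every p and SE, and they enter the genotype difference. A fit of the 2 main groups alone called 2370 genes in place of 3805.

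The 15 microglia markers were all detected, with a summed level of 8741 to 11169.5 CPM in KO fibril, 10122 to 10661 CPM in KO LPS and 10621 to 13801 CPM in KO control libraries. Siglech, another microglial gene, is listed at 0 in all 9 libraries. Astrocyte markers (12 of 12 detected) summed to 60.0 to 340.1 CPM in KO fibril libraries, against 35.7 and 34.7 CPM in KO LPS replicates 1 and 2 and 182 and 208 CPM in replicates 3 and 4. Oligodendrocyte markers (13 of 13 detected) summed to 94.3 to 382 CPM in KO fibril and 103 to 461 CPM in KO LPS libraries, and fibroblast markers (12 of 12 detected) to 39.4 to 160.2 and 26.6 to 77.6 CPM. Neuron markers (10 of 10 detected) stayed at 3.55 to 15.8 and 5.10 to 20.7 CPM, and endothelial and pericyte markers (6 and 7 of 9 detected) at 13.1 to 24.7 and 13 to 15.1 CPM, with Cldn5 and Abcc9 at 0 in both groups. Border macrophage markers summed to 1129 to 1349 CPM in KO fibril and 1242 to 1331 CPM in KO LPS libraries, and lymphocyte and granulocyte markers to 2.37 to 7.02 and 1.79 to 6.66 CPM, with Cd3e, Cd3d, Ncr1, S100a9 and Mpo among those at 0 in both. Of 11 fibroblast markers tested, Dcn was higher with fibrils (2.49 ± 0.82, not called without LPS replicate 1, 2 or 3 or fibril replicate 5), 9 had positive fold changes and the median was 1.61. Pecam1 was lower (-2.31 ± 0.51) among 4 endothelial and pericyte markers tested. Of 7 border macrophage markers Ms4a7 was higher (0.55 ± 0.12) and Mrc1 and F13a1 were lower, and of the 15 microglia markers Aif1, Fcrls and Spi1 were higher and P2ry12 and Trem2 lower. Of the tested markers of astrocytes (11), oligodendrocytes (13) and neurons (4), edgeR called none between KO fibril and KO LPS, only Cspg4 had an unadjusted p under 0.05, and DESeq2 and limma-voom each called 1 oligodendrocyte marker lower.

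Of 14346 genes, 3805 (26.5%) were called between KO fibril and KO LPS, 1976 (13.8%) higher and 1829 (12.7%) lower with fibrils. Scaled by library size alone, the split was 2442 higher and 1448 lower, and the median of all genes moved to 0.09 from 0.02 on the log2 scale. Without KO LPS replicates 1 and 2 the count was 2282, without replicates 3 and 4 it was 2778, and no gene was called in the opposite direction in either. The CPM ranges of the 2 groups did not overlap for 2957 genes (20.6%). Against the shared KO controls, 3402 genes (23.7%) were called with fibrils, 1746 higher (12.2%) and 1656 lower (11.5%), and 1967 (13.7%) with LPS, 912 higher (6.36%) and 1055 lower (7.35%). Scaled by library size alone, the median of all genes against control was -0.13 with fibrils and -0.21 with LPS, and the splits were 1002 higher and 2232 lower with fibrils and 517 higher and 2318 lower with LPS.

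Setting each gene beside the control separates the 1829 lower genes into kinds. For 324 of them LPS was above control while fibrils were not called against control, and for 99 both treatments were above control. The most frequent kind, 945 genes, was lower with fibrils than control and not called with LPS. Among the 1976 higher genes, 787 were above control with fibrils and not called with LPS, and 590 were below control with LPS and not called with fibrils. All 3 comparisons share libraries, so these counts describe the same differences from several sides.

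**Figure D1:**
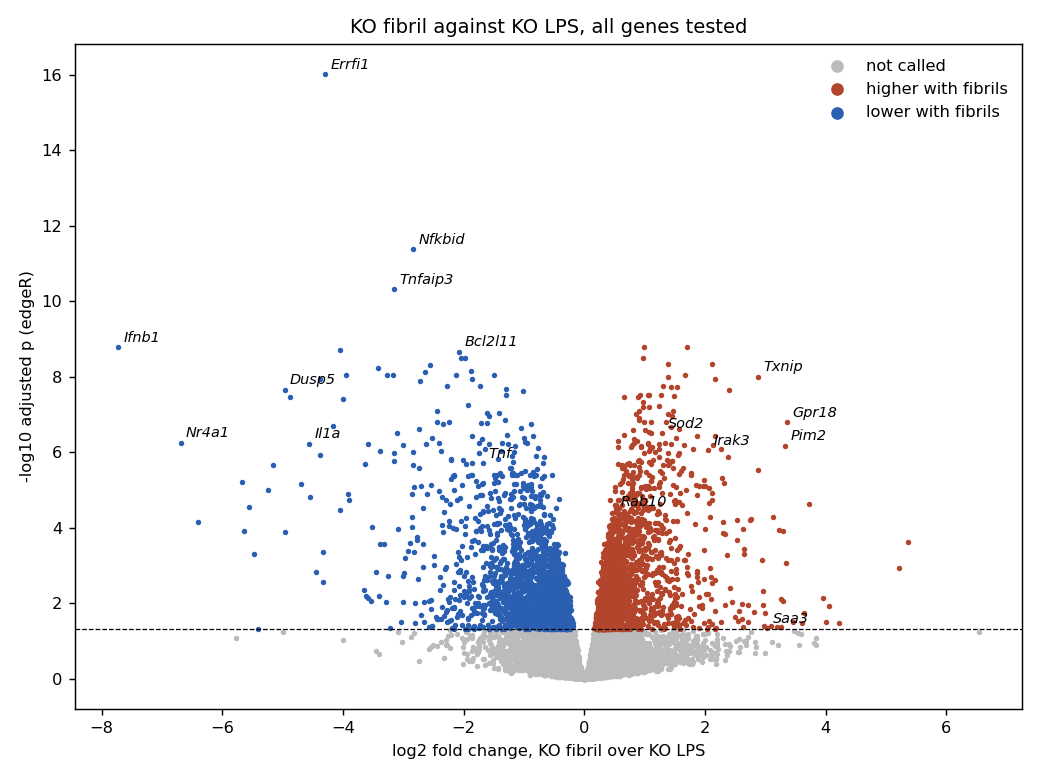
Log2 fold change of KO fibril over KO LPS (x axis) against -log10 of the edgeR adjusted p (y axis) for all 14346 genes tested, with the 1976 called higher in red, the 1829 called lower in blue and the 0.05 threshold as a dashed line. The 3 genes with the smallest adjusted p are on the lower side, Errfi1 at -4.29, Nfkbid at -2.84 and Tnfaip3 at -3.16.

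Promoter sequences of 5 genes that the results turn on are shown first, because 4 of them (Ifnb1, Cxcl1, Nfkbia and Nr4a1) are textbook signal-induced genes that were lower with fibrils, and the other (Txnip) was higher. Each is the 250 bases before the RefSeq start of the gene (GRCm38.p6), read on its strand, at chr4:88522795-88523044 (minus strand) for Ifnb1, chr5:90890995-90891244 (plus) for Cxcl1, chr12:55492648-55492897 (minus) for Nfkbia, chr15:101266596-101266845 (plus) for Nr4a1 and chr3:96557707-96557956 (plus) for Txnip. The RefSeq start used for Nr4a1 lies inside the gene as the GENCODE annotation gives it (101254269 to 101274795), downstream of its outer start, so that window is not at the outer start. Capitals mark matches to the NF-kB consensus in the first 3, to the CRE half-site TGACG in Nr4a1 and to CACGNG, part of the carbohydrate response element, in Txnip, on either strand.
Ifnb1: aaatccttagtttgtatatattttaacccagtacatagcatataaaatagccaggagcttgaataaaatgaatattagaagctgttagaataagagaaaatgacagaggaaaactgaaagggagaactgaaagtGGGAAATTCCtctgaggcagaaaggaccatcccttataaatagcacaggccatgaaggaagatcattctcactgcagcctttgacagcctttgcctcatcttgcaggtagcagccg
Cxcl1: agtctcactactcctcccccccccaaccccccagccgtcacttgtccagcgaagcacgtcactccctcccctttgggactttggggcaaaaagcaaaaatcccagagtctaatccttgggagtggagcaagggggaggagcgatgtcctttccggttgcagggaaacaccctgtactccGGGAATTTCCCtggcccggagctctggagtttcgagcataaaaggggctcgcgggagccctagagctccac
Nfkbia: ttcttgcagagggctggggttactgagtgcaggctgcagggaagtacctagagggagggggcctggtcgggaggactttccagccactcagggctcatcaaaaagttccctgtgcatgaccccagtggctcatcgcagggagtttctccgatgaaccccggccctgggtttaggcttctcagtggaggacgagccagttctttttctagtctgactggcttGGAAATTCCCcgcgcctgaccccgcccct
Nr4a1: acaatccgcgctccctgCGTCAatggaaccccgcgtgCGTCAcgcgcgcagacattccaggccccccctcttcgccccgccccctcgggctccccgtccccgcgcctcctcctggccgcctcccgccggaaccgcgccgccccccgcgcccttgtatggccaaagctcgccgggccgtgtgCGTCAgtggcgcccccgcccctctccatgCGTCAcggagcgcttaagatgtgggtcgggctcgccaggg
Txnip: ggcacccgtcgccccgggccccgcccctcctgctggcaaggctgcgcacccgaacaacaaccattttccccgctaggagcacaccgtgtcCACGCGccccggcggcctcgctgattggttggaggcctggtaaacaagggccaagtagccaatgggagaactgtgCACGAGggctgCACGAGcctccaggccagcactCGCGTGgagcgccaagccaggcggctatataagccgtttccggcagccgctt
The NF-kB consensus matched once in Ifnb1 (GGGAAATTCC), once in Nfkbia (GGAAATTCCC) and at 2 overlapping positions in Cxcl1 (GGGAATTTCC and GGAATTTCCC). Over 32851 RefSeq promoter windows of the same length, 7.25% held the NF-kB consensus, 17.8% TGACG, 23.5% CACGNG, 6.75% the AP-1 motif TGANTCA and 1.47% a CArG box. Nr4a1 held 4 matches to TGACG, 1 of which shares bases with a CACGNG match, and Txnip held 4 matches to CACGNG. Neither TGANTCA nor a CArG box matched in any of the 5 windows, and Cxcl1 also held 2 TGACG matches. A match describes letters in the window and is not a measured binding site.

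Genes of the receptor side of the LPS pathway were called in both directions. Of 19 genes for Toll-like receptors and their adaptors, 10 (52.6%, against 26.5% of all genes) were called: 7 were higher with fibrils (Tlr1, Tlr6, Myd88, Ticam2, Tirap, Irak2 and Irak3) and 3 were lower (Tlr4, Tlr2 and Tlr13), with a median of 0.17. Irak3, which encodes a kinase-like inhibitor of this signalling, had 177, 123, 228, 120.4 and 220 CPM in KO fibril libraries, against 32.7, 35.7, 59.6 and 39.7 CPM in KO LPS libraries. The groups did not overlap, and LPS was not called against the KO control level of 47.8 ± 16.6 CPM (SD, n = 6; edgeR adjusted p = 0.68). Irak3 was 4.14-fold higher with fibrils (log2 2.05 ± 0.25, edgeR adjusted p = 8.81e-07).

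Tirap, the bridging adaptor for Toll-like receptors 2 and 4, was higher at 17.8, 16.7, 27.3, 24.7 and 38.1 CPM with fibrils, against 8.94, 8.62, 10.1 and 7.16 CPM with LPS (1.51 ± 0.22, edgeR adjusted p = 8.44e-06). Tlr2, a receptor of bacterial lipopeptides, went the other way, with 280.4, 231, 229, 191 and 167 CPM with fibrils, against 574, 615, 565 and 529 CPM with LPS and 161 ± 40.3 CPM in KO controls (SD, n = 6). Every LPS library was above every fibril library, and the log2 change was -1.38 ± 0.17 (edgeR adjusted p = 9.43e-07). For Tlr4 and Tlr13 the changes were -0.31 ± 0.11 and -0.90 ± 0.28, and both calls ended when single libraries were left out (edgeR adjusted p up to 0.153 and 0.07). Without KO LPS replicates 1 and 2 the list had 6 genes higher and 1, Tlr2, lower.

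The feedback inhibitors of NF-kB are known as its targets, and its activity was not measured. Of 17 genes for NF-kB subunits and feedback inhibitors, 10 were called (58.8%, against 26.5% of all genes): 8 were lower with fibrils (Rel, Nfkbia, Nfkbib, Nfkbid, Nfkbie, Nfkbiz, Tnfaip3 and Tnip3), by 0.60 to 3.16 on the log2 scale, and Nfkb1 and Tnip1 were higher. Against control, 14 of the 17 were called higher with fibrils and 15 with LPS. None of the 17 was called lower than control with either treatment.

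Tnfaip3, which encodes the ubiquitin-editing inhibitor A20, had 175, 181, 205, 147 and 180.2 CPM with fibrils, against 1536, 1556, 1673 and 1574 CPM with LPS. Control libraries averaged 85.6 ± 24.1 CPM (SD, n = 6), both treatments were above control, and Tnfaip3 was 8.93-fold lower with fibrils than with LPS (-3.16 ± 0.21, edgeR adjusted p = 4.73e-11). Nfkbia, encoding IκBα, which holds NF-kB in the cytoplasm, had 278, 221, 379.6, 244 and 305 CPM with fibrils, against 893, 913, 880.5 and 873 CPM with LPS and 68.4 to 148 CPM in controls (-1.64 ± 0.20, edgeR adjusted p = 8.19e-07). Its promoter, printed above, holds an NF-kB match, as do those of Ifnb1 and Cxcl1.

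Nfkbid, an atypical nuclear inhibitor, had 12.9, 13.3, 11.9, 9.51 and 8.19 CPM with fibrils, against 70.2, 82.7, 91.4 and 75.1 CPM with LPS. Fibril libraries were not called against the control level of 10.3 ± 1.87 CPM (0.12, edgeR adjusted p = 0.631), and were 7.15-fold below LPS. Of the higher genes, Nfkb1 (0.38 ± 0.13) and Tnip1 (0.53 ± 0.19) overlapped between groups and lost their calls without several single libraries (edgeR adjusted p up to 0.0905 and 0.177).

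Of 13 proinflammatory cytokines tested, 7 (53.8%, against 26.5% of all genes and 12.7% lower) were called, all lower with fibrils (Tnf, Il1a, Il1b, Lif, Osm, Csf2 and Tnfsf9). The other 6 were not called and 4 of the 13 had positive fold changes, with a median over the 13 of -1.65 against 0.02 over all genes. In a fit of the 2 groups alone 4 were called (Tnf, Il1a, Osm and Tnfsf9). Against control 8 were higher with fibrils and 9 with LPS, and none was lower.

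Tnf had 586, 469, 955, 522 and 578 CPM in KO fibril libraries, against 2071, 2199, 1909.8 and 1777 CPM in KO LPS libraries and 115 ± 37.7 CPM in KO controls (SD, n = 6). The groups did not overlap, and Tnf was 3.20-fold lower with fibrils (-1.68 ± 0.22, edgeR adjusted p = 1.98e-06). It was at the same time above control (2.44, edgeR adjusted p = 4.82e-09).

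Il1a, which encodes interleukin 1α, had 3.03, 1.80, 11.5, 1.62 and 12 CPM with fibrils, against 157, 175, 124 and 107 CPM with LPS, a 23.6-fold difference (-4.56 ± 0.54, edgeR adjusted p = 5.91e-07). Il1b spread more, with 75.4, 41.1, 457, 96.3 and 478 CPM with fibrils, against 718, 775, 926 and 841 CPM with LPS. Fibril replicates 3 and 5 lay above the other fibril libraries and below every LPS library, the change was -1.83 ± 0.56 (edgeR adjusted p = 0.0163), and the call ended in a fit of the 2 groups alone (edgeR adjusted p = 0.0887). Without LPS replicates 1 and 2 its adjusted p was 0.0519, and without replicates 3 and 4 it was 0.0806.

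Il6 did not pass the test, with 1.78, 0.879, 11.9, 3.76 and 14.5 CPM with fibrils, against 17.4, 16.3, 32.6 and 15.8 CPM with LPS (-1.65 ± 0.69, edgeR adjusted p = 0.0764), although the groups did not overlap. Tnfsf9, the ligand 4-1BBL, was called at -3.95 ± 0.36, with 10.8 to 16.3 CPM with fibrils, against 140.4 to 269 CPM with LPS. Nos2, the inducible nitric oxide synthase, was too low to be tested, with 0 to 108 counts in a KO fibril library and 0 to 4 in a KO LPS library.

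Of 9 genes that restrain cytokine signalling, 3 (33.3%, against 26.5% of all genes) were lower, none was higher and 6 were not called. Socs3, an inhibitor of JAK kinases, had 58.9, 33.4, 233, 57.2 and 164 CPM with fibrils, against 469, 506, 481 and 450 CPM with LPS and 8.34 ± 2.56 CPM in controls (-2.13 ± 0.37, edgeR adjusted p = 0.00011). Cish, of the same family, was lower at -3.25 ± 0.75, with at most 0.45 CPM in a fibril library against 1.5 to 2.49 CPM with LPS. Il1rn, the interleukin 1 receptor antagonist, was lower at -1.41 ± 0.45, with fibril replicate 5 at 96.0 CPM inside the LPS range of 83.9 to 147 CPM, and its call ended without LPS replicates 1 and 2 (-1.03, edgeR adjusted p = 0.23).

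Of 19 chemokines tested, 5 were lower with fibrils and 14 were not called (26.3% called, about the 26.5% of all genes), with a median of -0.19. Without fibril replicate 5 the count was 7 and the median -0.37, and without LPS replicates 1 and 2 they were 4 and -0.03. The neutrophil-attracting Cxcl1 had 16.6, 5.94, 21.3, 2.25 and 4.09 CPM with fibrils, against 263, 265, 154 and 159 CPM with LPS (20.9-fold lower, -4.39 ± 0.55, edgeR adjusted p = 1.2e-06). Both groups were called above the control level of 1.38 ± 0.837 CPM (SD, n = 6). Cxcl2, of the same subfamily, was 8.02-fold lower (-3.0 ± 0.36), with 92.6 to 363 CPM with fibrils and 1408 to 1533 CPM with LPS, and Cxcl3 was lower at -1.84 ± 0.45.

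Ccl22, a ligand of CCR4, was at 0.0419 to 0.75 CPM with fibrils, against 1.93 to 2.82 CPM with LPS (-3.32 ± 0.63). Ccl2, which attracts monocytes, ranged from 10.3 to 228 CPM with fibrils, against 216 to 406 CPM with LPS (-2.08 ± 0.58, edgeR adjusted p = 0.00831). The highest fibril library, replicate 5, lay inside the LPS range, and without LPS replicates 1 and 2 the adjusted p was 0.107.

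**Figure D2:**
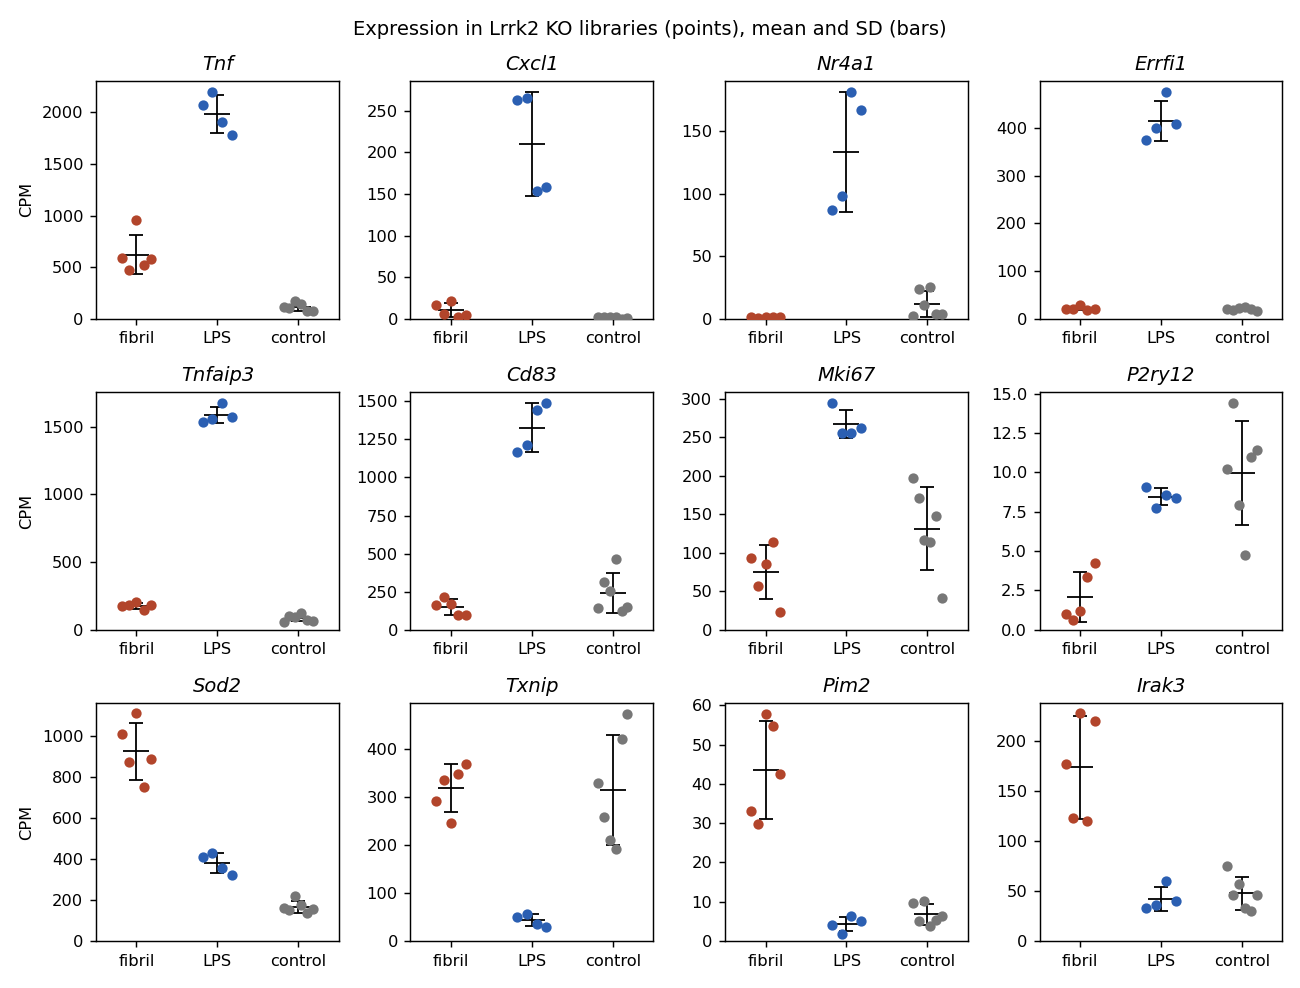
CPM (y axes, linear from 0) of 12 genes in the 5 KO fibril, 4 KO LPS and 6 KO control libraries, with points for libraries and black bars for the mean ± SD. Tnfaip3 stands at 147 to 205 CPM with fibrils and 1536 to 1673 CPM with LPS, while Sod2 stands at 749 to 1110 CPM with fibrils and 320.4 to 429.5 CPM with LPS.

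Immediate early transcription factors showed the most uniform difference of the lists examined, with 22 of 23 lower with fibrils and none higher (95.7% of the list, against 26.5% of all genes). The changes ran from 0.90 to 6.69 on the log2 scale, with a median of -1.86. The mean log2 CPM of the list was 3.19 to 3.69 in KO fibril libraries, against 5.54 to 6.13 in KO LPS and 3.08 to 4.09 in KO control libraries. Against control, 18 of 23 were higher with LPS and none lower, while with fibrils 11 were called, in both directions. The count was 20 without LPS replicates 1 and 2 and 18 without replicates 3 and 4.

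Nr4a1 (chromosome 15, 101254269 to 101274795, plus strand), an orphan nuclear receptor that curbs inflammatory genes in macrophages, had 1.38, 0.879, 1.45, 1.10 and 1.64 CPM with fibrils, against 86.7, 98.1, 181 and 167 CPM with LPS. This was a 103-fold difference (-6.69 ± 0.79, edgeR adjusted p = 5.58e-07). Controls ranged from 2.34 to 25.5 CPM, so that fibril libraries lay below all controls (-3.15, edgeR adjusted p = 0.00147) and LPS libraries above all of them.

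Egr2, a zinc finger factor of the early growth response family, had 2.79 to 7.16 CPM with fibrils and 57.2 to 124 CPM with LPS (-4.0 ± 0.40), and was not called between fibrils and control (-0.22, edgeR adjusted p = 0.722). Maff, a small Maf protein, had 12.3 to 21.3 CPM with fibrils and 139 to 174 CPM with LPS (-3.17 ± 0.29), and was above its control level of 5.45 ± 2.01 CPM in both. The groups did not overlap for either gene.

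Phosphatases that switch off MAP kinases and proteins that destroy cytokine mRNAs gave 8 lower of 13 and none higher (61.5% called, against 26.5% of all genes; median -1.67). Dusp5, which dephosphorylates ERK, had 6.07, 5.69, 8.90, 6.95 and 8.14 CPM with fibrils, against 207, 224, 229 and 234 CPM with LPS (31.3-fold lower, -4.97 ± 0.48, edgeR adjusted p = 2.2e-08). Dusp1, which acts on p38 and JNK, had 34.3, 31.1, 53.3, 52.3 and 87.7 CPM with fibrils, against 471, 584, 579 and 575 CPM with LPS, and sat at 49.7 ± 11.9 CPM in controls. Zfp36, the mRNA decay factor tristetraprolin, and Zfp36l1 and Rc3h1 of the same function were among the 8.

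Errfi1, a feedback inhibitor of the EGF receptor, had the smallest adjusted p of the 14346 genes. It had 20.1, 19.4, 28.1, 18.7 and 19.4 CPM with fibrils, against 376, 400, 476 and 408 CPM with LPS and 20.3 ± 2.81 CPM in controls (-4.29 ± 0.16, edgeR adjusted p = 9.52e-17). Fibril and control libraries overlapped, and every LPS library was above both. Csrnp1, a cysteine- and serine-rich nuclear protein, and Gem, a small GTPase of the RGK family, were lower in the same way, by -4.06 ± 0.32 and -4.17 ± 0.46, with neither called between fibrils and control (edgeR adjusted p = 0.619 and 0.904).

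Of 30 interferon genes tested, 4 were lower (Ifnb1, Irf1, Irf5 and Irf8) and 1, Usp18, was higher (16.7% called, below the 26.5% of all genes), with a median of 1.38. The median was 0.29 without KO fibril replicate 5, whose list mean of 7.51 compares with 3.61 to 6.17 in the other fibril libraries, 4.94 to 5.72 in LPS libraries and 2.96 to 7.05 in controls. Ifnb1 (chromosome 4, 88522025 to 88522774, minus strand), the cytokine that LPS induces through TRIF, had 0, 0, 0, 0.0522 and 0.145 CPM with fibrils, against 7.45, 13.7, 10 and 5.79 CPM with LPS. These are 4 counts over the 5 fibril libraries and 756 over the 4 LPS libraries (edgeR adjusted p = 1.63e-09), and control libraries had 0 to 0.0724 CPM.

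Irf1, an interferon-induced transcription factor that NF-kB also drives, was lower at 76.3, 64.6, 68.3, 71.3 and 102 CPM with fibrils, against 573, 601, 438 and 414 CPM with LPS (-2.73 ± 0.25, edgeR adjusted p = 1.33e-08). Usp18, an interferon-stimulated isopeptidase, had 13.2, 8.92, 60.2, 91.5 and 214 CPM with fibrils, against 13.1, 16.6, 29.0 and 16.0 CPM with LPS (2.05 ± 0.75, edgeR adjusted p = 0.0424). Its groups overlapped and its call ended without any 1 of 6 of the 9 libraries (edgeR adjusted p up to 0.224). Irf5 and Irf8 were lower by 0.33 and 0.51 on the log2 scale, and both lost the call without LPS replicate 2.

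Among inflammasome genes, 3 of 14 were lower and none higher (21.4% called, below the 26.5% of all genes). Nlrp3, the sensor primed by NF-kB, had 196, 129, 361, 117 and 230.3 CPM with fibrils, against 861, 952, 1100.3 and 813 CPM with LPS and 56.5 ± 19.4 CPM in controls (-2.17 ± 0.30, edgeR adjusted p = 4.29e-06). Mefv, which encodes pyrin, was lower at -2.78 ± 0.52, and Nlrp1b at -2.33 ± 0.26. Nlrp1b differed from the other pair in that LPS libraries (16.8 to 18.3 CPM) sat at the control level of 18.3 ± 3.91 CPM and fibril libraries (0.90 to 4.94 CPM) below it; it has near-identical paralogs, so its counts are uncertain.

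Of 12 genes of prostaglandin and leukotriene synthesis 7 (58.3%, against 26.5% of all genes) were lower and 5 not called, and 4 of the 12 had positive fold changes. The 7 were Ptgs1, Ptgs2, Alox5, Alox5ap, Lta4h, Hpgds and Tbxas1. Without LPS replicates 1 and 2, or in a fit of the 2 groups alone, Hpgds and Tbxas1 were the only lower genes of the list, and without those replicates Ptges was also called higher. Tbxas1, thromboxane synthase, had 30.7 to 74.0 CPM with fibrils and 97.0 to 151 CPM with LPS (-1.21 ± 0.18). Odc1, the first enzyme of polyamine synthesis, was lower at -2.24 ± 0.24 with 38.8 to 74.5 CPM with fibrils and 235 to 288 CPM with LPS, and Arg2, a mitochondrial arginase, at -2.99 ± 0.68. They were the 2 calls (28.6%, near the 26.5% of all genes) among 7 tested genes of itaconate, nitric oxide and arginine metabolism.

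Oxidative stress genes, the pathways named in the title of the series beside inflammation, were called in both directions. Of 29 tested genes of the Nrf2 antioxidant system, 3 were higher and 5 lower (27.6% called, near the 26.5% of all genes), with a median of 0.02 that equals that of all genes. Sod2 (chromosome 17, 13006846 to 13040063, plus strand), the mitochondrial superoxide dismutase, had 1011, 871, 1110.1, 749 and 885 CPM with fibrils, against 408, 429.5, 357 and 320.4 CPM with LPS and 134 to 221 CPM in controls. The ranges did not overlap, and Sod2 was 2.44-fold higher (1.29 ± 0.15, edgeR adjusted p = 3.08e-07).

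Txnip, which binds thioredoxin and limits glucose uptake, had 291, 336, 246, 348 and 369.7 CPM with fibrils, against 49.5, 56.9, 36.2 and 29.9 CPM with LPS (7.39-fold higher, 2.88 ± 0.26, edgeR adjusted p = 9.88e-09). Controls averaged 314 ± 114 CPM (SD, n = 6), and fibrils were not called against them (0.02, edgeR adjusted p = 0.967), while every LPS library was below every fibril library. Gsr, glutathione reductase, was higher by 0.56 ± 0.12. The transcription factor gene Nfe2l2, encoding Nrf2, was lower at -0.80 ± 0.22, its antagonist Bach1 at -0.61 ± 0.17 and the target Srxn1 at -1.12 ± 0.28. Gpx1 and Mgst1 were also lower but lost their calls without single libraries (edgeR adjusted p up to 0.0876 and 0.209). Without LPS replicates 1 and 2 the list of 29 had 5 genes higher and 1 lower (median 0.2). Without replicates 3 and 4 it had 2 higher and 4 lower (median -0.27). In a fit of the 2 groups alone 3 were higher and 3 lower.

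The classic Nrf2 targets Hmox1 and Nqo1 did not pass. Hmox1, heme oxygenase 1, had 1353, 1365, 455, 1433 and 1123 CPM with fibrils, against 2295 and 2678 CPM in LPS replicates 1 and 2 and 815 and 719 CPM in LPS replicates 3 and 4 (-0.51 ± 0.35, edgeR adjusted p = 0.322). Its estimate was 0.58 without LPS replicates 1 and 2 and -1.12 (edgeR adjusted p = 0.0249) without replicates 3 and 4. Nqo1, a quinone reductase, had 25.9, 17.5, 20.3, 6.48 and 5.64 CPM with fibrils, against 9.79, 9.98, 6.86 and 7.29 CPM with LPS (0.84 ± 0.34, edgeR adjusted p = 0.0724).

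Of 9 NADPH oxidase genes 3 (33.3%, against 26.5% of all genes) were higher with fibrils and none was lower. Ncf4, encoding the p40phox subunit, had 173, 156, 172, 153 and 149 CPM with fibrils, against 55.8, 64.4, 92.0 and 87.0 CPM with LPS (1.10 ± 0.14, edgeR adjusted p = 2.01e-06). Rac2, the GTPase of the complex, was higher by 1.35 ± 0.24 and Cybb, its membrane subunit, by 0.60 ± 0.20, the last of which was not called without LPS replicate 3 or 4 or fibril replicate 5. Iron handling gave 2 higher and 2 lower of 13 (30.8% called, near the 26.5% of all genes). The transporter gene Slc11a2 was higher at 0.68 ± 0.12 and the iron exporter Slc40a1 lower at -1.09 ± 0.31. The call of Slc40a1 ended without LPS replicates 1 and 2 and in a fit of the 2 groups alone. Lcn2 (2.98 ± 1.07) and Blvra (-0.25 ± 0.09) completed the iron genes called, and both lost the call without several single libraries.

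Genes of endoplasmic reticulum stress gave 5 lower of 23 and none higher (21.7% called, below the 26.5% of all genes). Ppp1r15a, which restarts translation after stress, had 22.9 to 32.8 CPM with fibrils and 90.6 to 185 CPM with LPS (-2.22 ± 0.28). Dnajb9, Pdia4, Hspa5 and Hsp90b1 were lower by 0.46 to 0.52 on the log2 scale, and without LPS replicates 1 and 2 Ppp1r15a alone was called. Among 13 cytosolic heat shock genes the chaperone gene Dnaja1 (0.58 ± 0.14) and the regulator Hsf1 (0.35 ± 0.12) were higher, both with overlapping groups. They made 15.4% of that list, below the 26.5% of all genes. Neither was called without LPS replicates 3 and 4 or in a fit of the 2 groups alone.

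**Figure D3:**
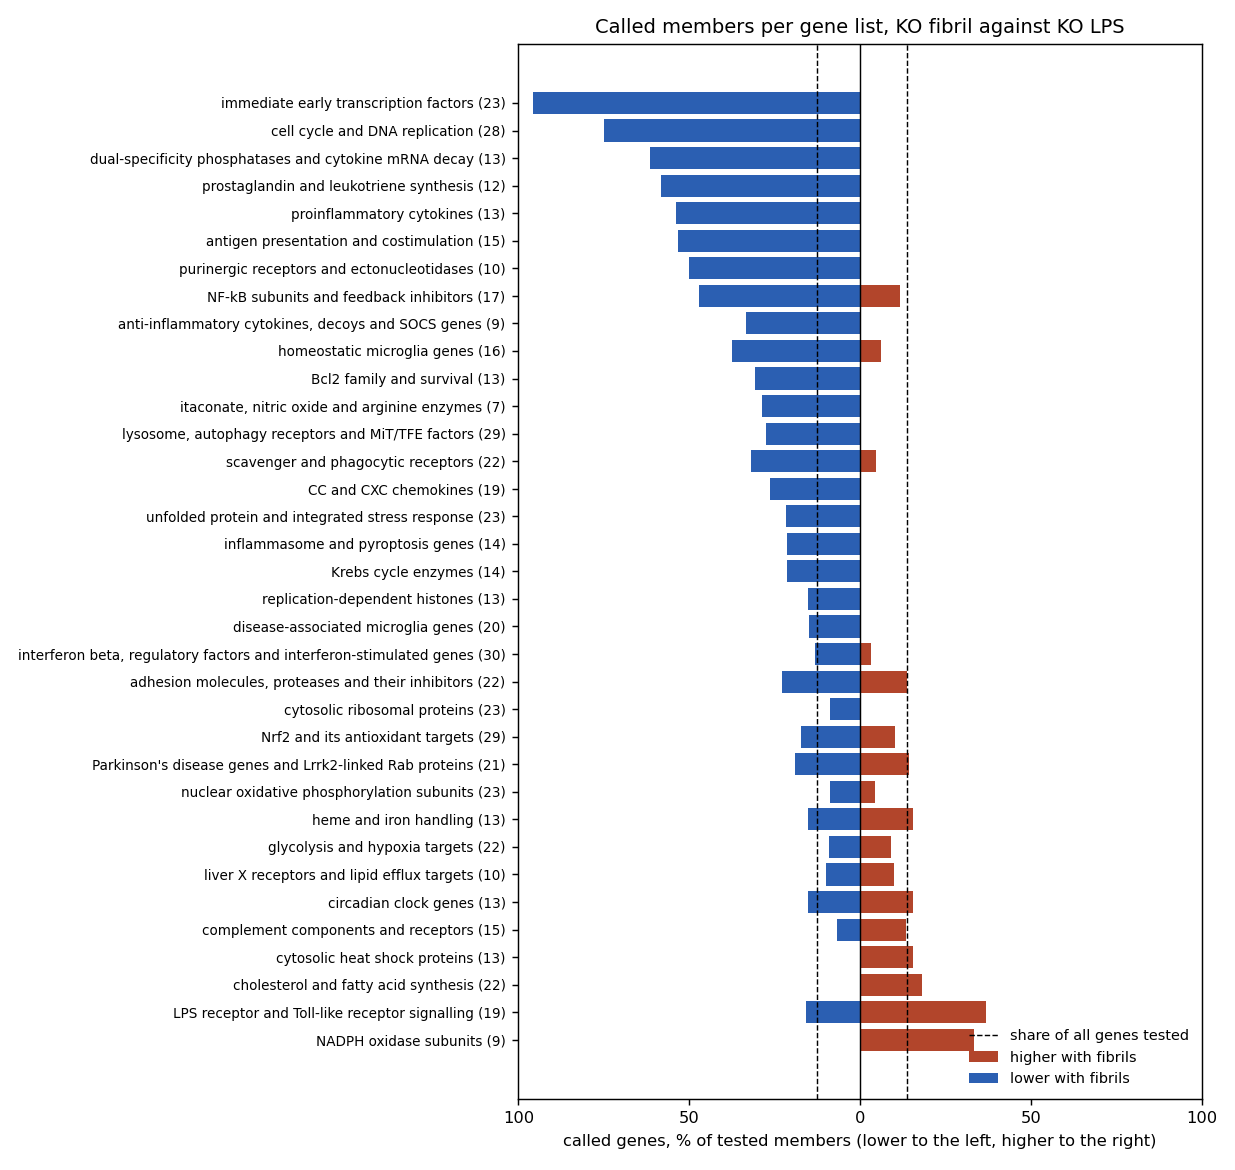
Share of tested members called higher (red, right) or lower (blue, left) with fibrils than with LPS for 35 gene lists, with the number tested in parentheses and dashed lines at the shares of all genes, 13.8% higher and 12.7% lower. Immediate early genes (22 of 23 lower) and cell cycle genes (21 of 28 lower) reach farthest to the left.

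Of 16 homeostatic genes, which mark resting microglia, 6 were lower with fibrils (P2ry12, P2ry13, Gpr34, Selplg, Mef2c and Cst3), Fcrls was higher and 9 were not called (43.8% called, against 26.5% of all genes). For P2ry12, Gpr34 and Mef2c, LPS was not called against control (edgeR adjusted p = 0.744, 0.86 and 0.3). P2ry12, the ADP receptor that steers microglial processes, had 0.982, 0.628, 1.20, 3.34 and 4.24 CPM with fibrils, against 9.07, 7.76, 8.57 and 8.36 CPM with LPS (-2.03 ± 0.39, edgeR adjusted p = 0.000307). Controls averaged 9.94 ± 3.29 CPM (SD, n = 6), and their range held LPS libraries. In bulk RNA, fewer cells of a type and less RNA per cell cannot be told apart.

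Mef2c, a transcription factor of mature microglia, had 63.1, 85.7, 45.6, 77.8 and 47.5 CPM with fibrils, against 200.2, 189, 187 and 187 CPM with LPS (-1.58 ± 0.17, edgeR adjusted p = 1.1e-07). Gpr34, a lysophosphatidylserine receptor, was 15.0-fold lower (-3.90 ± 0.60), with 0.385 to 2.98 CPM with fibrils and 9.87 to 25.7 CPM with LPS. The myeloid factor gene Spi1, encoding PU.1, and Aif1, encoding the marker IBA1, were higher by 0.64 ± 0.09 and 0.85 ± 0.25, and microglia markers were called in both directions. Without LPS replicates 1 and 2 the lower homeostatic genes were Mef2c, P2ry12, P2ry13 and Gpr34, and none was higher.

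Of 20 disease-associated microglia genes, 3 were lower (Trem2, Lpl and Igf1) and none higher, so that 15.0% were called, against 26.5% of all genes and 12.7% lower. Trem2, a lipid-sensing receptor, had 149.9 to 619.9 CPM with fibrils and 502 to 673 CPM with LPS (-0.77 ± 0.25), and Igf1, a growth factor, 539 to 1140 and 1274 to 2259 CPM (-1.06 ± 0.26). None of the 3 was called without LPS replicates 1 and 2.

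Of 22 scavenger and phagocytic receptors 7 were lower and 1, Marco, was higher (36.4% called, against 26.5% of all genes). Of 29 lysosomal and autophagy genes 8 were lower and none higher (27.6%, near the 26.5% of all genes). Without LPS replicates 1 and 2 the 22 receptors had 3 lower and 1 higher, a gene other than Marco. Olr1, the receptor for oxidized low-density lipoprotein, had 1.43, 1.38, 0.80, 1.78 and 0.482 CPM with fibrils, against 31.0, 29.5, 21.8 and 16.1 CPM with LPS (20.8-fold lower, -4.38 ± 0.40, edgeR adjusted p = 1.11e-08). The mannose receptor Mrc1 was lower at -1.21 ± 0.15, with 159.7 to 252 CPM with fibrils and 463 to 526 CPM with LPS, and Scarb2, a lysosomal membrane protein, at -0.73 ± 0.11.

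Marco, a scavenger receptor for bacteria and particles, had 1095, 597, 1093, 1622 and 1389.7 CPM with fibrils, against 375, 402, 467 and 367 CPM with LPS (1.53 ± 0.44, edgeR adjusted p = 0.0101), and the call ended without LPS replicates 1 and 2 (edgeR adjusted p = 0.0937). Of the lysosomal group, the autophagy receptor Sqstm1 had 1195 to 2131 CPM with fibrils and 2416 to 2830.4 CPM with LPS (-0.66 ± 0.17), Hexa, a hexosaminidase subunit, fell by 0.36 on the log2 scale, and Atp6v0d2, a proton pump subunit, was at -1.67 ± 0.49. Without LPS replicates 1 and 2 none of the 29 was called, and without replicates 3 and 4 there were 10 lower.

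Antigen presentation genes gave 8 lower of 15 and none higher (53.3% called, against 26.5% of all genes), with a median of -1.01. The count was 4 in a fit of the 2 groups alone and 3 with limma-voom, and without LPS replicates 1 and 2 it was 2 with a median of -0.15. Cd83, a costimulatory protein of activated antigen-presenting cells, had 161, 217, 172, 98.7 and 96.0 CPM with fibrils, against 1166, 1210.3, 1446 and 1488 CPM with LPS (8.91-fold lower, -3.16 ± 0.39, edgeR adjusted p = 1.08e-06). The class II chain H2-Aa had 0.0837 to 0.70 CPM with fibrils, against 5.38 and 6.83 CPM in LPS replicates 1 and 2 and 0.357 and 0.772 CPM in replicates 3 and 4. Its call (-3.29 ± 0.93) ended without LPS replicates 1 and 2 (-0.74, edgeR adjusted p = 0.704), and the 2 genes of the list then lower were Cd83 and H2-DMa. H2-DMa, a class II chaperone, was lower at -1.62 ± 0.31.

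Complement genes gave 2 higher (C3 at 1.45 ± 0.42 and the complement inhibitor Cd55 at 2.16 ± 0.66) and 1 lower (the receptor gene C5ar2 at -1.67 ± 0.41) of 15 (20% called, below the 26.5% of all genes). None of the 15 was called without LPS replicates 1 and 2. Purinergic genes gave 5 lower of 10 (50% called, against 26.5% of all genes) and none higher. Entpd1, the ectonucleotidase CD39, had 26.9, 41.1, 14.6, 20.5 and 14.2 CPM with fibrils, against 115, 108, 90.5 and 108 CPM with LPS (-2.16 ± 0.29), and the adenosine receptor Adora2b was 5.29-fold lower (-2.40 ± 0.28). Enpp1 (-1.17 ± 0.19), P2rx7 (-0.66 ± 0.13) and P2ry6 (-0.26 ± 0.08) completed the group.

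Of 22 protease and adhesion genes tested, 36.4% were called, against 26.5% of all genes. The matrix metalloproteinases Mmp9, Mmp14 and Mmp2 were higher and Sdc4, Plau, Plaur and Thbs1, of the plasminogen system and cell surface, lower. Mmp9, gelatinase B, had 343, 201, 695, 163 and 193 CPM with fibrils, against 106, 109.6, 131 and 96.6 CPM with LPS (1.53 ± 0.34, edgeR adjusted p = 0.00125). Plau, the urokinase gene, had 178, 262, 97.7, 270.4 and 67.4 CPM with fibrils, against 1120.4, 1095, 721 and 770 CPM with LPS (-2.40 ± 0.35, edgeR adjusted p = 1.09e-05), and its receptor Plaur was lower at -1.57 ± 0.28. Sdc4, a heparan sulfate proteoglycan, was lower at -1.58 ± 0.19, and Mmp2, also a fibroblast product, lost its call without any 1 of 6 of the 9 libraries.

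Of 28 cell cycle genes tested 21 were lower and none higher (75% called, against 26.5% of all genes and 12.7% lower). The changes were 0.74 to 1.84 on the log2 scale, with a median of -1.05 over the list. Mki67, the proliferation marker, had 93.5, 57.2, 85.4, 114 and 23.7 CPM with fibrils, against 295, 256, 256 and 262 CPM with LPS (-1.84 ± 0.34, edgeR adjusted p = 0.000211), with fibril replicate 5 lowest. The replication clamp gene Pcna had 218 to 407 CPM with fibrils and 566 to 761 CPM with LPS (-1.13 ± 0.16), and the helicase subunit gene Mcm6 49.0 to 111 and 153 to 184 CPM (-0.89 ± 0.20).

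The list mean of cell cycle genes was 3.10 to 4.71 log2 CPM in KO fibril, 5.22 to 5.39 in KO LPS and 3.93 to 5.50 in KO control libraries, and against control 13 of 28 were lower with fibrils. The count was 16 without fibril replicate 5, 11 without LPS replicates 1 and 2, 11 without replicates 3 and 4 and 9 in a fit of the 2 groups alone. Replication histones gave 2 lower of 13 (15.4% called, below the 26.5% of all genes). These were Hist1h1c at -1.15 ± 0.24 and Hist2h3c2 at -1.36 ± 0.51, whose counts are uncertain because the copies are near-identical.

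**Figure D4:**
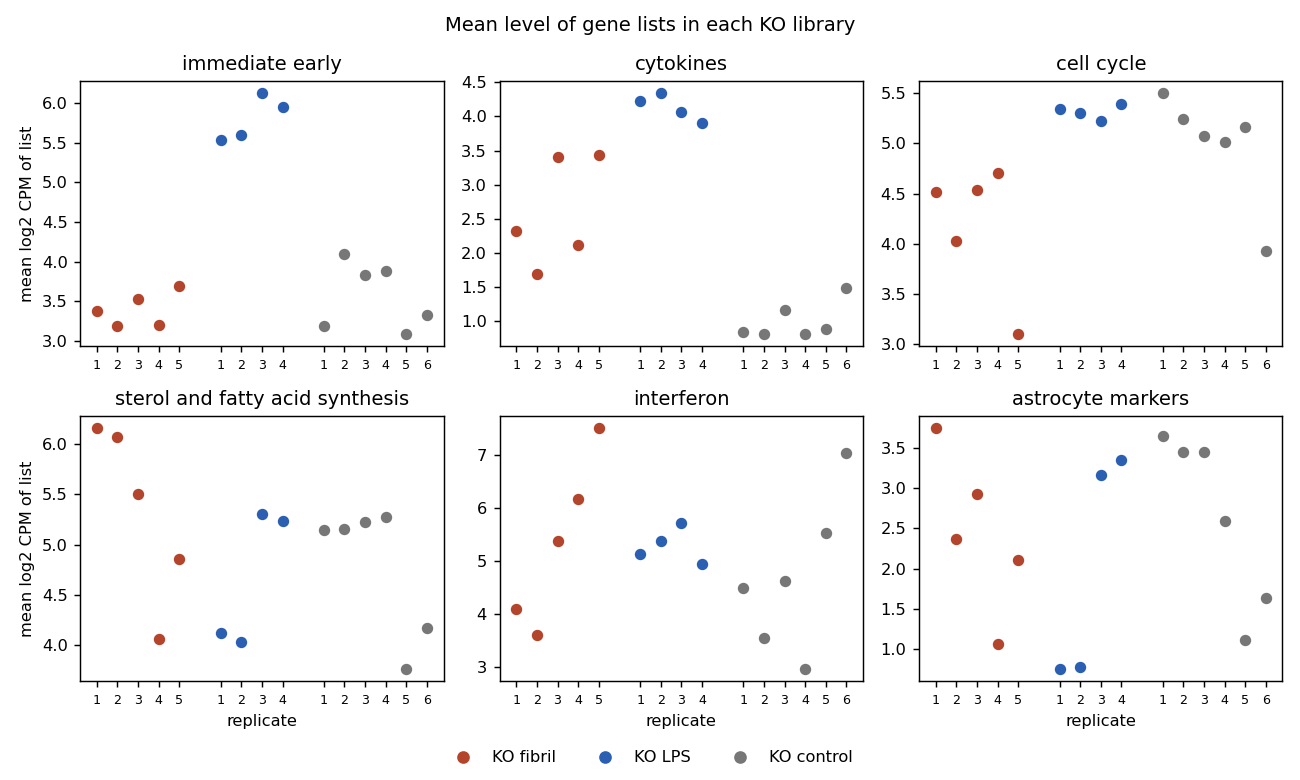
Mean log2 CPM (y axes, not starting at 0) of 6 gene lists in each of the 5 KO fibril, 4 KO LPS and 6 KO control libraries, numbered by replicate on the x axes. Immediate early genes separate the groups (3.19 to 3.69 with fibrils, 5.54 to 6.13 with LPS), whereas sterol synthesis and astrocyte markers split KO LPS replicates 1 and 2 from 3 and 4, and KO fibril replicate 5 is highest in interferon genes and lowest in cell cycle genes.

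Survival genes gave 4 lower of 13 and none higher (30.8% called, near the 26.5% of all genes). Bcl2l11, encoding the death-promoting protein BIM, had 59.2, 64.5, 45.2, 41.5 and 51.4 CPM with fibrils, against 244, 233, 232 and 171 CPM with LPS and 98.5 ± 27.4 CPM in controls (-2.07 ± 0.17, edgeR adjusted p = 2.14e-09). No fibril library overlapped an LPS library, and fibrils were also below control (-0.91, edgeR adjusted p = 7.42e-05). The antiapoptotic Mcl1 (-1.02 ± 0.15) and Cflar (-0.77 ± 0.19) and the death-promoting Pmaip1 (-1.11 ± 0.20) were lower too, and all 4 were still called without either pair of LPS libraries.

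Of 22 genes of sterol and fatty acid synthesis, 4 were called, all higher (18.2%, below the 26.5% of all genes), with a median of 0.82. Mvd, an enzyme of the mevalonate pathway, had 31.4, 34.3, 16.2, 8.05 and 9.78 CPM with fibrils, against 5.06, 5.10, 10.3 and 9.05 CPM with LPS (1.43 ± 0.43). Lss (1.44 ± 0.46) and Fdft1 (1.51 ± 0.52), which make lanosterol and squalene, were also higher. All 3 overlapped between groups and had their highest values in fibril replicates 1 and 2. None of the 22 was called without LPS replicates 1 and 2 (median 0.39) or in a fit of the 2 groups alone, against 11 without replicates 3 and 4 (median 1.58). The astrocyte markers split the LPS libraries in the same way. In a fit with the level of other-cell markers as a covariate 9 of the 22 were called, all higher, with a median of 0.58. That covariate comes from the same libraries, and a link between the markers and the sterol genes was not tested.

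Abca1, the cholesterol exporter driven by liver X receptors, was lower with 685, 801, 702, 1126 and 1105 CPM with fibrils, against 2406, 2206, 2107 and 1655 CPM with LPS (-1.24 ± 0.22, edgeR adjusted p = 0.000115), while the receptor gene Nr1h3 was higher at 0.82 ± 0.20. These were the 2 calls among 10 liver X receptor genes (20% called, below the 26.5% of all genes). Of 22 glycolysis and hypoxia genes Hk2, a hexokinase (0.76 ± 0.18), and Adm, adrenomedullin (2.75 ± 0.46), were higher, and Vegfa (-2.92 ± 0.58) and the glucose transporter gene Slc2a3 (-1.14 ± 0.32) lower. These calls were 18.2% of that list, below the 26.5% of all genes. Krebs cycle genes gave 3 lower of 14 (Idh1, Idh2 and Mdh1, by 0.59 to 0.76), and nuclear oxidative phosphorylation genes 1 higher (Cycs) and 2 lower (Sdhd and Uqcrfs1) of 23. The shares called, 21.4% and 13%, were also below 26.5%. In a fit of the 2 groups alone 1 Krebs cycle gene was called, lower.

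Clock genes gave 2 higher (Clock at 0.28 ± 0.07 and Cry1 at 0.47 ± 0.13) and 2 lower (Nr1d2 at -1.18 ± 0.16 and Dbp at -1.47 ± 0.39) of 13 (30.8% called, near the 26.5% of all genes). Of 23 cytosolic ribosomal protein genes Rps2 and Rpl10 were lower (8.7% called, below the 26.5% of all genes), by 0.26 and 0.36 on the log2 scale. Both calls ended without single libraries. Reads of these 2 genes can be shared with pseudogenes.

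Genes of Parkinson's disease and the Rab proteins that LRRK2 acts on gave 3 higher and 4 lower of 21 (33.3% called, against 26.5% of all genes). Rab10, a main substrate of LRRK2, had 387, 391, 397, 428 and 522 CPM with fibrils, against 297, 290.1, 308 and 294 CPM with LPS (0.52 ± 0.08, edgeR adjusted p = 3.78e-05), with no overlap and KO controls at 269 ± 27.3 CPM. Rab12, also a substrate, went the other way, with 65.6 to 77.8 CPM with fibrils and 82.4 to 87.4 CPM with LPS (-0.28 ± 0.07). Lrrk2 itself is among the lower genes. Pink1, a mitochondrial kinase, was lower at -0.62 ± 0.17, and Rab3a higher at 1.22 ± 0.34, whereas Rab35 (0.22 ± 0.08) and Rab7b (-0.82 ± 0.30) lost their calls without single libraries.

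The 12 genes most reduced with fibrils were Nr4a1, Dusp5, Slco2b1, Cytip, Il1a, Cxcl1, Olr1, Errfi1, Gem, Csrnp1, Egr2 and Tnfsf9 (called genes whose log2 CPM averaged 2 or more). Slco2b1, an organic anion transporter, and Cytip, a cytohesin-binding protein of leukocytes, differ from the rest against the baseline. Slco2b1 had 0.402, 0.628, 0.65, 3.34 and 0.723 CPM with fibrils, against 38.4, 40.6, 26.5 and 27.8 CPM with LPS and 24.7 ± 13.1 CPM in controls (-4.88 ± 0.48, edgeR adjusted p = 3.49e-08). Cytip had 0.771 to 5.65 CPM with fibrils and 63.6 to 90.1 CPM with LPS (-4.70 ± 0.66), and for both genes LPS was not called against control (edgeR adjusted p = 0.553 and 0.844).

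The 12 genes most increased were Gpr18, Pim2, Zfp811, Itgal, Saa3, Lcn2, Txnip, Sema4c, Slamf9, Adm, Fgl2 and Siglece. Gpr18, a lipid-sensing receptor of immune cells, had 9.64, 7.87, 20.7, 25.4 and 22.6 CPM with fibrils, against 1.69, 1.19, 1.71 and 2.10 CPM with LPS and 2.84 ± 1.17 CPM in controls (10.2-fold higher, 3.36 ± 0.36, edgeR adjusted p = 1.61e-07). Pim2, a survival kinase, had 33.2, 29.8, 57.7, 54.8 and 42.4 CPM with fibrils, against 4.02, 1.84, 6.27 and 5.02 CPM with LPS (10.1-fold higher, 3.33 ± 0.40, edgeR adjusted p = 6.73e-07). In both, fibril libraries were above every LPS library and LPS was not called against control.

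Itgal, the integrin chain of LFA-1, had 135, 96.7, 298, 393 and 507 CPM with fibrils, against 13.1, 15.2, 59.9 and 34.0 CPM with LPS (3.22 ± 0.57, edgeR adjusted p = 0.000115). Zfp811, a zinc finger gene (3.29 ± 0.58), Slamf9, a receptor of the SLAM family (2.76 ± 0.46), and Siglece, an inhibitory sialic acid receptor (2.65 ± 0.52), were also higher without overlap. Saa3, Lcn2, Sema4c and Fgl2 were higher but overlapped between groups. Saa3, an acute-phase protein, had 164, 107, 519, 239 and 2505 CPM with fibrils, against 98.9, 119, 79.8 and 48.0 CPM with LPS, and all 4 calls ended without fibril replicate 5 (edgeR adjusted p of Fgl2 0.0745 without it).

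The difference between fibrils and LPS was then set beside that in wild-type microglia, as an interaction. It contrasts the 19 fibril and LPS libraries of both genotypes within the fit of all 30 libraries. The interaction was called for 161 of 14346 genes (1.12%), 92 higher and 69 lower in knockout. The same contrast in wild type was -7.93 ± 0.91 for Nr4a1, -2.04 ± 0.22 for Tnf, 1.23 ± 0.13 for Sod2 and 3.22 ± 0.23 for Txnip, and the interaction was not called for these 4 (edgeR adjusted p = 0.492, 0.474, 0.899 and 0.552). A p that misses the threshold does not show that the genotypes respond alike.

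Noc4l, a nucleolar protein of ribosome assembly, had the smallest adjusted p of the interaction. It had 9.98 to 11.8 CPM in KO fibril and 6.91 to 8.17 CPM in KO LPS libraries, against 7.38 to 9.09 CPM in wild-type fibril and 9.03 to 11.6 CPM in wild-type LPS libraries (interaction 0.90 ± 0.13, edgeR adjusted p = 0.00496). It was called in all 19 fits that left out 1 library and with a covariate for other-cell markers (edgeR adjusted p = 0.0423).

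Serpinb9, Galk2, Rbm22 and Timp1 kept the call in 13 or 14 of those 19 fits and lost it with the covariate (edgeR adjusted p = 0.117 each). Serpinb9, an inhibitor of granzyme B, was at -1.70 ± 0.30, Galk2 at -0.50 ± 0.09 and the splicing factor gene Rbm22 at 0.70 ± 0.13. Timp1, a metalloproteinase inhibitor, was at 6.06 ± 1.10, with 1.20 to 6.47 CPM in KO fibril and 0.976 to 1.94 CPM in KO LPS libraries, against 0.0529 to 0.122 CPM in wild-type fibril and 0.144 to 3.56 CPM in wild-type LPS libraries.

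The summed level of 12 fibroblast markers moved in the same way as Timp1, at 39.4 to 160.2 CPM in KO fibril and 26.6 to 77.6 CPM in KO LPS libraries, against 14 to 15.7 CPM in wild-type fibril and 38.6 to 155 CPM in wild-type LPS libraries. Over the 11 tested fibroblast markers the interaction had a median of 6.02 and was positive for all 11, and over the 11 tested astrocyte markers it was 3.88. Leaving out single libraries gave 1 to 628 calls, with 1 without KO LPS replicate 1 or wild-type fibril replicate 1 or 2 and 628 without KO fibril replicate 2. With the covariate for other-cell markers 2 genes were called in place of 161, and without KO LPS replicates 1 and 2 the count was 3.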

How the data were processed

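The authors deposited whole-number read counts per transcript, not normalized, for 30 libraries of mouse microglia. Per the labels' protocols, RNA was rRNA-depleted, made into stranded TruSeq libraries and sequenced as single-end reads. Per the submitters' processing notes, CASAVA 1.7.1, STAR 2.4.2a and the genome mm10 were used; the counting program and its strand setting are unstated in the sources used here, so overlapping and antisense genes cannot be told apart.

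The deposited counts of 94647 transcripts were summed to genes with GENCODE M21 (91320 matched; the 3327 unmatched held 0.7788 to 0.891% of counts and were left out). Of 38031 genes, 14346 passed edgeR's expression filter. Gene totals were 8936310 to 35677005 per library. edgeR 4.0.16 (R 4.3.3) fitted a quasi-likelihood model with TMM scaling (0.827 to 1.14) to 6 groups over all 30 libraries, with 24 residual degrees of freedom, a common biological coefficient of variation of 0.294 and Benjamini-Hochberg adjustment over all genes tested. CPM use TMM-scaled library sizes, and mean log2 CPM a prior count of 2. The script was tested on simulated data. Alternatives used DESeq2 1.42.0, limma-voom (limma 3.58.1), other scalings and filters, a fit of the compared groups alone, a replicate block, a covariate for other-cell markers, protein-coding genes only and libraries left out.

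Named genes were the 12 highest and 12 lowest called genes whose log2 CPM averaged 2 or more, up to 3 called members of each list by p, Lrrk2, Tnf, Il1b, Il6, Sod2, Hmox1, Nqo1 and Nos2, genes behind counts of 5 or fewer, and 6 genes of the genotype difference. Genes that alternatives alone called were named after their values were seen. The members and lists were chosen with earlier results of these data known. Some genes that these rules name are not reported here.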

Additional observations from a re-analysis of the deposited data

Results flagged for a closer look

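In groups of 4 to 6 libraries, 38 of 492 sets of CPM values of the named genes held a library far from the others by Dixon's criterion, and chance alone gives about 1 in 20. KO fibril replicate 5 was such a library for 6 genes, highest for Csrnp1 (19.2 CPM), Lcn2 (129 CPM), Saa3 (2505 CPM), Il1rn (96.0 CPM) and Ccl2 (228 CPM) and lowest for Blvra (94.5 CPM). KO fibril replicate 3 was highest for Errfi1 (28.1 CPM), Tnf (955 CPM), Cish (0.45 CPM) and Ccl22 (0.75 CPM). KO fibril replicate 4 was highest for Slco2b1 (3.34 CPM), Pdia4 (144 CPM) and Slc2a3 (5.75 CPM), and replicate 2 for Nefl (1.42 CPM).

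Among KO LPS libraries, replicate 1 was lowest for Dusp1 (471 CPM) and highest for Mki67 (295 CPM). Replicate 3 was lowest for Hist1h1c (84.0 CPM) and highest for Il6 (32.6 CPM), and replicate 4 was lowest for Bcl2l11 (171 CPM) and highest for Nefl (2.62 CPM).

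Among KO controls, replicate 6 stood apart for 7 genes, highest for Fgl2 (311 CPM), Lcn2 (49.5 CPM), Saa3 (1866 CPM), Usp18 (105 CPM), Cflar (339 CPM) and Cry1 (18.5 CPM) and lowest for Idh1 (129 CPM). Replicate 4 was highest for Gem (4.57 CPM), Arg2 (5.37 CPM), Hpgds (432 CPM), Thbs1 (133 CPM) and Rab7b (601 CPM). Replicate 5 was highest for Slco2b1 (50.4 CPM), Pdia4 (127 CPM), Slc2a3 (9.27 CPM) and Cspg4 (28.4 CPM), replicate 2 for Cish (1.5 CPM) and replicate 3 for Nefl (6.77 CPM).

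The log2 difference between fibrils and LPS was itself different between knockout and wild type for 10 named genes by the edgeR interaction test. The difference was 0.90 for Noc4l, -1.70 for Serpinb9, -0.50 for Galk2, 0.70 for Rbm22 and 6.06 for Timp1. It was 6.02 for Dcn, a matrix proteoglycan of fibroblasts, 4.57 for Mmp2, -0.74 for Gsr, -0.52 for Blvra, a biliverdin reductase, and -1.22 for Idh1.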

How the results depend on the processing

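Of 159 called named genes, 85 kept call and direction in all 21 alternatives and 74 lost the call in at least 1. The 3805 calls between KO fibril and KO LPS became 2370 when only the groups compared were fitted and 2282 without KO LPS replicates 1 and 2, and ranged from 2990 to 3795 when 1 library was left out. No alternative called a gene in the opposite direction. The 3402 calls of fibrils against control became 1541 when only those groups were fitted and ranged from 2665 to 3811 with 1 library left out. The 1967 calls of LPS against control became 1110 and 1032 under the same pair of changes and ranged from 1384 to 2225.

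The 161 genotype differences became 71 with no filter on low counts, 1020 with DESeq2, 21 with limma-voom, 591 in a fit of the compared groups alone, 2 with the covariate for other-cell markers, 3 without KO LPS replicates 1 and 2 and 1109 without replicates 3 and 4. They ranged from 1 to 628 with 1 library left out. Fits without libraries hold fewer samples, and their counts lay both below and above 161. The cause of these shifts was not tested.

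With the replicate number as a block, the counts were 3920, 3672, 2097 and 714 in the order above. Deviations of same-numbered fibril and LPS libraries from their group means correlated at -0.42 to 0.12, and those of other numbers at -0.38 to 0.43. Of the LPS libraries, 0 of 4 correlated best with their own number. With 4 same-numbered pairs, these correlations cannot decide whether libraries of the same number share a culture or batch.

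Among genes that were not called, the sign turned for S100a8 (0.37 with all libraries, -0.03 to 0.67 with 1 left out, lowest without KO LPS replicate 3, and -0.21 without replicates 3 and 4), Nefl (-1.22 with all libraries, -2.95 to 0.29 with 1 left out, highest without KO LPS replicate 4, and 0.53 without replicates 3 and 4), Hmox1 (0.58 without replicates 1 and 2) and Aldh1l1 (0.20 without replicates 3 and 4). Leaving out a pair of LPS libraries was chosen after seeing the data. Low counts limit Ifnb1 (4 fibril counts) and Nos2.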
